A study of Mus musculus with 8 samples.

Results

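The Toll-like receptors and their shared adaptor *Myd88* were followed in splenic CD8+ T cells of C57BL/6 mice. The 9 genes *Tlr1*, *Tlr2*, *Tlr3*, *Tlr4*, *Tlr6*, *Tlr7*, *Tlr9*, *Tlr12* and *Myd88* were taken by their symbols from the 48321 gene symbols in the count tables. They were chosen on their CPM over the 4 groups below, which earlier work on these data had in view. Their levels and fold changes are therefore given as a description, with a standard error and no test. Of the 9 genes, 6 passed the filter on low counts (*Tlr1*, *Tlr2*, *Tlr6*, *Tlr7*, *Tlr12* and *Myd88*), and the other 3 had at most 3 reads in any library. RNA sequencing was performed on 8 libraries in 4 groups of 2: WT cells at day 0, KO cells at day 0, WT cells at day 5 and KO cells at day 5. KO stands for cells of *Satb1* F/F; E8I-cre mice, in which a Cre driven by the E8I enhancer of *Cd8a* acts in mature CD8+ T cells and deletes floxed *Satb1*, the gene of a chromatin-organising factor. Day 0 is before and day 5 is after culture with stimulation in vitro. The sources used here give neither the Cre status of the WT mice nor the stimulus for these libraries in particular, and the labels do not say whether replicates came from separate mice. The standard errors and p-values then measure only the spread between these libraries, which may be technical.

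Toll-like receptors recognise conserved parts of microbes through leucine-rich repeats and signal through a cytoplasmic TIR domain. TLR2 pairs with TLR1 or TLR6 at the cell surface to bind bacterial lipopeptides, whereas TLR3, TLR7, TLR9 and TLR12 act in endosomes. All of them except TLR3 signal through MYD88, which recruits IRAK kinases and TRAF6 and leads to the release of NF-kB from its inhibitors. In T cells, TLR2 is known as a co-stimulatory receptor, and MYD88 also serves the receptors for IL-1, IL-18 and IL-33.

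*Satb1* itself was not lower in the KO libraries at day 0. In CPM (reads scaled to the size of the library, with TMM factors), *Satb1* measured 97.8 and 91.6 in the WT and 144 and 125 in the KO libraries at day 0, and 96.5 and 116 in the WT and 56.5 and 62.3 in the KO libraries at day 5. The difference was not called at day 0 (log2 fold change 0.51 ± 0.146 SE, false discovery rate, FDR, 0.125), and *Satb1* was lower in KO at day 5 (-0.84 ± 0.150, FDR 0.0162; edgeR quasi-likelihood test, Benjamini-Hochberg over all genes tested). That call was lost without WT day 5 replicate 2 (FDR 0.0848), KO day 5 replicate 1 (0.174) or KO day 5 replicate 2 (0.156). The counts are per gene and do not show whether a deleted exon was transcribed. KO below means the libraries labelled KO. The libraries held 4170126 to 11117971 reads assigned to genes. A count of 0 allows up to 3 reads, or 0.257 to 0.723 CPM depending on the library, which covers counting error only. The 5 CD8 T-cell markers were present in every library and summed to 6160 to 10683 CPM. *Cd4* had at most 7 reads in any library.

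*Tlr2* was the member with the most distinct pattern over the groups. In CPM, the WT day 0 libraries held 8.59 and 12.4, with 5.49 and 7.52 in KO day 0, 6.70 and 7.47 in WT day 5, and 38.3 and 54.2 in KO day 5. These values rested on 48 and 55, 64 and 41, 38 and 31, and 208 and 286 reads. Both KO day 5 libraries lay above the other 6 libraries, which all lay between 5.49 and 12.4 CPM. KO was 6.53-fold above WT at day 5 (log2 fold change 2.71 ± 0.282 SE, n = 2 per group) and below WT at day 0 (-0.71 ± 0.294). From day 0 to day 5 the level was 7.26-fold higher in KO (2.86 ± 0.273) and lower in WT (-0.56 ± 0.306). The difference between these log2 fold changes was 3.42 ± 0.408. At day 0 the 2 WT libraries also lay above both KO libraries, with a smallest gap of 8.59 against 7.52 CPM. Without WT day 0 replicate 2, the KO minus WT value at day 0 was -0.44 and the WT value from day 0 to day 5 was -0.28. *Tlr2* lies on chromosome 3 (chr3:83836272-83841767, minus strand, GRCm38), and no stretch of its transcript as long as the 50-base reads was shared with another gene.

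The sequence around its start site is shown because *Tlr2* carries the largest difference between KO and WT among the 6 measured genes. It covers 250 bases before and 50 bases after the start (RefSeq, GRCm38.p6, chr3:83841559-83841858, minus strand, written 5′ to 3′). Capitals mark matches to the NF-kB core GGGNNNNNCC on either strand, where N is any base and overlapping matches run together:
Tlr2 promoter: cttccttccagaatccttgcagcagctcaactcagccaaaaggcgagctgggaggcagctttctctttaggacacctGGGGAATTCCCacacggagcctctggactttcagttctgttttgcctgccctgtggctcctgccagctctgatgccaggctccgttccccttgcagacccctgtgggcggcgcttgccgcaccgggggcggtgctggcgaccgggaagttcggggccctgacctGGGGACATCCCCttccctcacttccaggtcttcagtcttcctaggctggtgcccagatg
The 5 overlapping matches fell in 2 stretches. At least 1 match to this short motif was present in 50.8% of the 32851 promoters in the table, and 3.16% of them held 5 or more. A match describes letters in the sequence and was not tested as a binding site.

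Myeloid cells also express *Tlr2*, and the summed level of the 8 myeloid markers was also higher in KO than in WT at day 5. It was 13.4 to 22.2 CPM in WT day 0, 13.0 to 20.2 in KO day 0, 34.7 to 41.7 in WT day 5 and 52.8 to 73.6 in KO day 5, with 2 to 5 of the 8 markers above 3 reads in a library. *Cd68*, a lysosomal glycoprotein, made up most of the sum at day 5 with 30.7 and 37.1 CPM in WT and 68.4 and 46.4 in KO. *Itgam*, the integrin chain CD11b, was also higher, with 1.47 and 1.14 CPM in KO day 5 (8 and 6 reads) and 0.529 and 0.482 in WT day 5 (3 and 2 reads). *Csf1r*, the receptor for the macrophage growth factor, measured 3.68 and 4.73 CPM in KO day 5 and 3.53 and 3.86 in WT day 5. *Cybb*, a subunit of the phagocyte oxidase, had 0 and 3 reads in KO day 5 and 0 in both WT day 5 libraries. The other 4 markers, *Lyz2*, *Adgre1*, *S100a8* and *S100a9*, had 0 reads in both KO day 5 libraries, and in WT day 5 they had 0 reads except for 1 read of *Lyz2*. The T cells had been enriched magnetically and sorted by flow cytometry, and the gate for these libraries is not given in the sources used here. The part of any remaining myeloid cells in the level of *Tlr2* was not tested. In bulk samples, a smaller share of a cell type and less RNA per cell cannot be told apart.

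**Figure D1:**
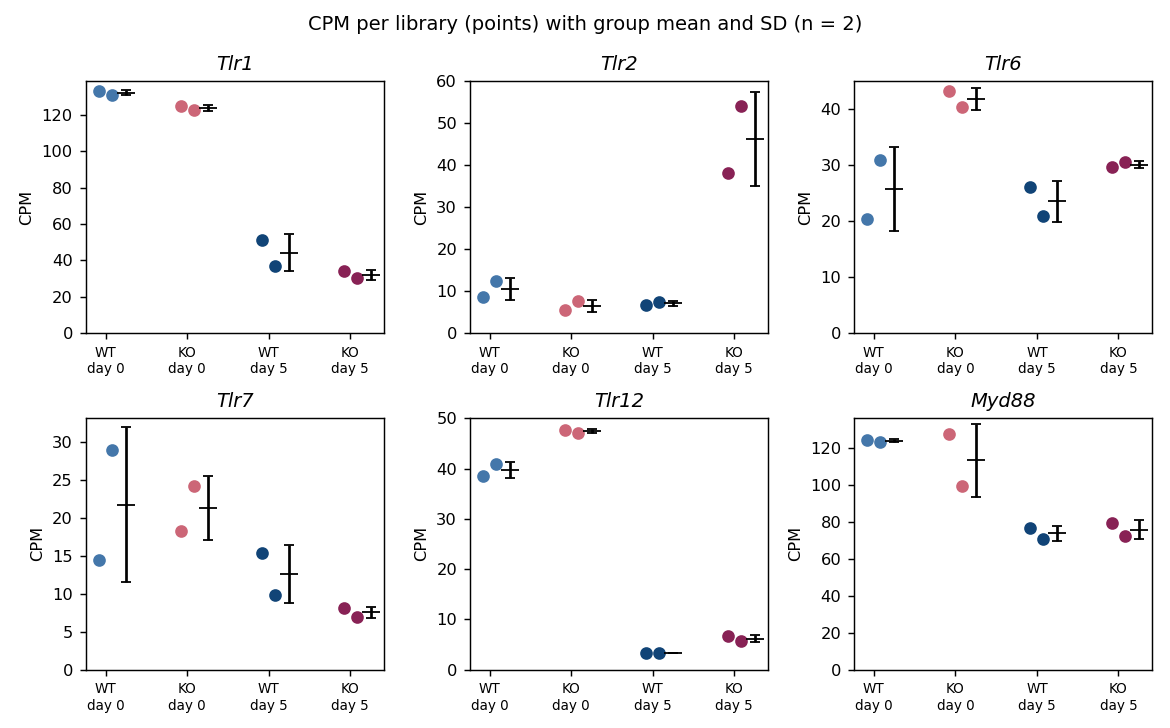
Level of the 6 measured genes in each library, in CPM on a linear axis from 0 (points; 2 libraries in each of the 4 groups), with the group mean and SD as a black bar beside the points. Tlr2 reached 38.3 and 54.2 CPM in KO day 5 and at most 12.4 CPM elsewhere, and Tlr1, Tlr12 and Myd88 were lower in all 4 day 5 libraries than in all 4 day 0 libraries.

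*Tlr1*, a partner of TLR2 for triacylated lipopeptides, was lower at day 5 than at day 0 in both genotypes. It measured 133 and 131 CPM in WT day 0, 125 and 123 in KO day 0, 51.3 and 36.9 in WT day 5, and 34 and 30.1 in KO day 5. All 4 day 5 libraries lay below all 4 day 0 libraries. Its log2 fold change from day 0 to day 5 was -1.57 ± 0.168 SE in WT and -1.95 ± 0.170 in KO. The KO minus WT difference was -0.09 ± 0.158 at day 0 and -0.47 ± 0.175 at day 5. Without WT day 5 replicate 1 the day 5 difference was -0.19, and without WT day 5 replicate 2 it was -0.68. *Tlr1* lies on chromosome 5 (chr5:64924679-64933563, minus strand). The window at its first RefSeq start (chr5:64933509-64933808, minus strand) is shown beside that of *Tlr2*, and it held 0 matches to the same motif, so no letter is in capitals:
Tlr1 promoter: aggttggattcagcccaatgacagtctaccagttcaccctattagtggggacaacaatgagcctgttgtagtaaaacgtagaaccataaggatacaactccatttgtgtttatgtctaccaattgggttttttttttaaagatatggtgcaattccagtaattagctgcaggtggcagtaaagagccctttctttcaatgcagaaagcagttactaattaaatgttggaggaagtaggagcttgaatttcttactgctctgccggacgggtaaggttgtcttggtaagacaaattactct

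*Tlr6*, the partner of TLR2 for diacylated lipopeptides, had overlapping levels in WT at both days and a higher level in KO at day 0. It measured 20.4 and 31.0 CPM in WT day 0, 43.1 and 40.4 in KO day 0, 26.1 and 21 in WT day 5, and 29.6 and 30.5 in KO day 5. At each day both KO libraries lay above both WT libraries. The KO minus WT difference was 0.71 ± 0.213 SE (log2) at day 0 and 0.35 ± 0.220 at day 5. From day 0 to day 5 the log2 fold change was -0.11 ± 0.223 in WT and -0.48 ± 0.209 in KO. The 2 WT day 0 libraries spanned a wide range for this gene, and the WT change had no stable sign: without WT day 0 replicate 2 it was 0.22. The KO minus WT difference at day 0 was 0.43 without WT day 0 replicate 1, and that at day 5 was 0.20 without WT day 5 replicate 2 and 0.53 without WT day 5 replicate 1.

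*Tlr1* and *Tlr6* are neighbours on the same strand (*Tlr6* at chr5:64952031-64960097), and their sequences limit how well reads tell them apart. Their coding sequences of 2385 and 2418 bases were 72.2% identical, and the proteins of 795 and 806 residues were 64.6% identical. Of the 50-base stretches of the transcript, 15.3% in *Tlr1* and 12.6% in *Tlr6* were also present in another gene, 454 of them in each other. The pair of 120-base coding windows that were most alike is shown because a 50-base read within it cannot be assigned to either gene (GENCODE M21, GRCm38; *Tlr1* chr5:64925646-64925765 and *Tlr6* chr5:64953937-64954056, minus strand, coding bases 1468 to 1587 and 1507 to 1626). No base differed, so none is in capitals:
Tlr1 most alike: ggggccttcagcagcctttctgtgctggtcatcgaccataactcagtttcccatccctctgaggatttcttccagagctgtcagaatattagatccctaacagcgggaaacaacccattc
Tlr6 most alike: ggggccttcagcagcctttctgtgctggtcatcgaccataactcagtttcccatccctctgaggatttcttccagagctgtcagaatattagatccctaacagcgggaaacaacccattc
The least alike pair of windows of the same length (chr5:64926652-64926771 and chr5:64954937-64955056, coding bases 462 to 581 and 507 to 626) held 54 identical bases. It is shown because reads here separate the genes. Capitals mark the 66 bases that differ:
Tlr1 least alike: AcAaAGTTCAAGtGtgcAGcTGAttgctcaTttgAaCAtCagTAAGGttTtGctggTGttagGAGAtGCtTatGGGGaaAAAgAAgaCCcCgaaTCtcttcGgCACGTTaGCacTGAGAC
Tlr6 least alike: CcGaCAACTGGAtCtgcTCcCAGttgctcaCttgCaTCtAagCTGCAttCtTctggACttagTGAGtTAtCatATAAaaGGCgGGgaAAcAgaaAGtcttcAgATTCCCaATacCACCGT
In the count tables, 31.8% to 37.4% of the reads were set aside as aligned at more than 1 place, and reads from the shared stretches would be among them.

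Compared per kilobase of exon, the balance of *Tlr2* to its partners was reversed in KO day 5. The ratio of *Tlr2* to *Tlr1*, each in CPM per kb, was 0.0716 and 0.105 in WT day 0, 0.0488 and 0.0681 in KO day 0, 0.145 and 0.225 in WT day 5, and 1.25 and 2.0 in KO day 5. The ratio of *Tlr2* to *Tlr6* was 0.521 and 0.496, 0.157 and 0.230, 0.317 and 0.441, and 1.60 and 2.20 in the same order. *Tlr2* was thus below both partners in the other 6 libraries and above both in the KO day 5 libraries. The ratio of *Tlr6* to *Tlr1* ran from 0.138 in WT day 0 replicate 1 to 0.909 in KO day 5 replicate 2, so *Tlr1* was above *Tlr6* in all 8 libraries. The stretches shared by *Tlr1* and *Tlr6* bear on these ratios, and their part was not tested.

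**Figure D2:**
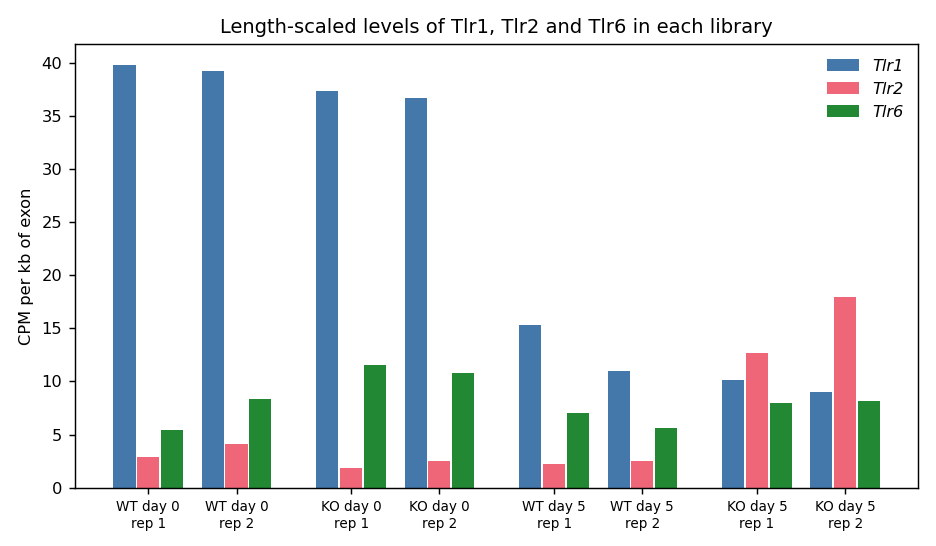
CPM per kb of exon (bars, linear axis from 0) of Tlr1, Tlr2 and Tlr6 in each of the 8 libraries. Tlr2 was the lowest of the 3 in 6 libraries and the highest in KO day 5 (12.7 and 18.0 CPM per kb), and Tlr1 stood at 36.6 to 39.8 at day 0 and at 9.0 to 15.3 at day 5.

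Among the endosomal receptors, *Tlr12*, a receptor for protozoan profilin in mice, had the largest difference between days. It measured 38.6 and 40.9 CPM in WT day 0, 47.8 and 47.2 in KO day 0, 3.35 and 3.37 in WT day 5, and 6.62 and 5.68 in KO day 5. The day 5 values rested on 14 to 36 reads a library, against 181 to 557 reads at day 0. The log2 fold change from day 0 to day 5 was -3.56 ± 0.230 SE in WT and -2.94 ± 0.205 in KO. Both KO libraries lay above both WT libraries at each day, with log2 differences of 0.26 ± 0.172 at day 0 and 0.87 ± 0.268 at day 5. *Tlr12* is a gene of 1 exon of 3177 bases on chromosome 4 (chr4:128615443-128618619, minus strand) and shared no 50-base stretch with another gene. Its start region (chr4:128618570-128618869, minus strand, RefSeq) is shown because this gene had the largest log2 difference between days of the 6, and it held 1 match to the motif above, in capitals:
Tlr12 promoter: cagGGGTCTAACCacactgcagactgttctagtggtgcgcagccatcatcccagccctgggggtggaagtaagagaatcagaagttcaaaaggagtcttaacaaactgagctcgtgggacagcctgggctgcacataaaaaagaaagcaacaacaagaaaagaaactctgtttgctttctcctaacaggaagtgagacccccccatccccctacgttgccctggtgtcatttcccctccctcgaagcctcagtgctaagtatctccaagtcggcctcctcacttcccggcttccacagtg

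*Tlr7*, the endosomal receptor for single-stranded RNA, was low and variable. It measured 14.5 and 28.9 CPM in WT day 0, 18.3 and 24.2 in KO day 0, 15.3 and 9.88 in WT day 5, and 8.09 and 7.01 in KO day 5. WT day 0 and WT day 5 overlapped, whereas KO day 5 lay below the other 6 libraries. The log2 fold change from day 0 to day 5 was -0.75 ± 0.333 SE in WT and -1.48 ± 0.343 in KO. The WT value was -1.17 without WT day 0 replicate 1 and -0.18 without WT day 0 replicate 2. At day 5 the KO minus WT difference was -0.76 ± 0.361, and it was -0.38 without WT day 5 replicate 1. At day 0 it was -0.03 ± 0.314 and had no stable sign, with -0.46 without WT day 0 replicate 1 and 0.54 without WT day 0 replicate 2. *Tlr7* lies on chromosome X (chrX:167304929-167330558, minus strand).

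Dendritic cells and B cells express several of these receptors, and the summed markers of both were also lower at day 5, each sum carried mostly by 1 gene. The 6 dendritic-cell markers summed to 12.5 to 13.8 CPM in WT day 0, 11.4 to 16.7 in KO day 0, 5.64 to 7.47 in WT day 5 and 6.25 to 6.44 in KO day 5, with 1 to 4 of the 6 above 3 reads. *Zbtb46*, a transcription factor of classical dendritic cells, supplied 8.05 and 8.59, 9.26 and 11.6, 3.35 and 6.99, and 5.33 and 5.49 CPM of these sums, so that WT day 5 and KO day 5 lay below both day 0 groups for this gene. *Xcr1* had 13 and 20 reads in WT day 0, 16 and 10 in KO day 0, 9 and 1 in WT day 5, and 5 and 3 in KO day 5. *Itgax* had 6 and 0 reads in WT day 0, 7 and 12 in KO day 0, and 0 in every day 5 library. *Flt3*, *Clec9a* and *Siglech* had at most 4 reads in any library. The 8 B-cell markers summed to 124 to 125, 144 to 170, 68.3 to 69.6 and 81.5 to 84.6 CPM in the same order, with 1 to 6 above 3 reads. *Cd79b* supplied 66.7 to 164 CPM of this sum, and the B-cell surface marker *Ms4a1* had at most 2 reads in any library. The gate of the sort for these libraries is not given in the sources used here. The part of any remaining dendritic cells or B cells in the levels of *Tlr1*, *Tlr7* and *Tlr12* was not tested. The NK markers summed to 0 to 1.43 CPM, and the CD4 T-cell markers to 0.226 to 3.0 CPM.

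*Myd88*, the adaptor, was the most abundant member per length. It measured 124 and 123 CPM in WT day 0, 127 and 99.1 in KO day 0, 76.4 and 70.8 in WT day 5, and 79.3 and 72.1 in KO day 5. The day 0 and day 5 libraries did not overlap, and KO and WT overlapped at both days. The log2 fold change from day 0 to day 5 was -0.75 ± 0.152 SE in WT and -0.58 ± 0.150 in KO, and the KO minus WT difference was -0.13 ± 0.148 at day 0 and 0.04 ± 0.153 at day 5. The KO value from day 0 to day 5 was -0.38 without KO day 0 replicate 1. At day 0 the sign of the KO minus WT difference rested on 1 library: without KO day 0 replicate 2 the day 0 difference was 0.07. *Myd88* lies on chromosome 9 (chr9:119335934-119341411, minus strand), and 11.3% of its exon length overlaps *Acaa1a*, a peroxisomal thiolase gene on the other strand. The strand setting of the counting is not given in the sources used here. *Acaa1a* itself had 71 to 268 reads a library, against 294 to 1482 for *Myd88*.

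The remaining members were at or under the limit of 3 reads in every library. *Tlr3*, the receptor for double-stranded RNA, had 1 and 2 reads in WT day 0, 0 and 1 in KO day 0, and 0 in all 4 day 5 libraries. *Tlr4*, the receptor for lipopolysaccharide, had 2 and 0 reads in WT day 0, 0 and 2 in KO day 0, 2 and 3 in WT day 5, and 0 and 1 in KO day 5. *Tlr9*, the receptor for unmethylated CpG DNA, had 1 read in WT day 0 replicate 1, 1 read in KO day 0 replicate 2 and 0 in the other 6. No fold change is given for these genes, since both groups of each comparison were at or under the limit. They lie at chr8:45395665-45411080 on the minus strand (*Tlr3*), chr4:66827584-66930284 on the plus strand (*Tlr4*) and chr9:106222598-106226883 on the plus strand (*Tlr9*). The lipopolysaccharide co-receptor *Cd14* had 1 read in 1 library and 0 in the other 7.

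The order of the members per length showed how far the set was rearranged. In WT day 0 the mean CPM per kb was 48.0 ± 0.297 (SD, n = 2) for *Myd88*, 39.5 ± 0.409 for *Tlr1*, 12.5 ± 0.510 for *Tlr12*, 6.89 ± 2.01 for *Tlr6*, 5.32 ± 2.50 for *Tlr7* and 3.49 ± 0.903 for *Tlr2*. Between libraries the levels of *Tlr6* and *Tlr7* overlapped, as did those of *Tlr7* and *Tlr2*. Within each WT day 0 library *Tlr6* was above *Tlr7*, and *Tlr7* above *Tlr2*. The values in this order were 5.47, 3.55 and 2.85 CPM per kb in replicate 1, and 8.31, 7.09 and 4.13 in replicate 2. This order was not tested. KO day 0 had the same order, with 43.9 ± 7.70, 37.0 ± 0.490, 14.9 ± 0.138, 11.2 ± 0.527, 5.21 ± 1.03 and 2.16 ± 0.477 CPM per kb, and no neighbours overlapped. In WT day 5 *Tlr12* was last, with 28.6 ± 1.52 for *Myd88*, 13.2 ± 3.05 for *Tlr1*, 6.31 ± 0.975 for *Tlr6*, 3.09 ± 0.947 for *Tlr7*, 2.35 ± 0.180 for *Tlr2* and 1.06 ± 0.00502 for *Tlr12*. Here *Tlr7* and *Tlr2* overlapped. In KO day 5 *Tlr2* stood second, with 29.4 ± 1.96 for *Myd88*, 15.3 ± 3.73 for *Tlr2*, 9.58 ± 0.829 for *Tlr1*, 8.06 ± 0.165 for *Tlr6*, 1.94 ± 0.210 for *Tlr12* and 1.85 ± 0.188 for *Tlr7*, and the last pair overlapped.

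Side by side, the KO minus WT differences of the 6 measured genes lay between -0.71 and 0.71 on the log2 scale at day 0 and between -0.76 and 2.71 at day 5. The difference between the days was 3.42 for *Tlr2* and between -0.72 (*Tlr7*) and 0.61 (*Tlr12*) for the other 5. The value of *Tlr7* was -0.30 without WT day 0 replicate 1 and -1.30 without WT day 0 replicate 2. Over all 12597 genes tested, 1.8% were called between KO and WT at day 0 and 1.63% at day 5 (FDR under 0.05), and 0.159% were called for the difference between the days. With culture, 48.3% of all genes were called in WT and 50.2% in KO. The members' own values were used to choose them and are not counted against these shares.

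**Figure D3:**
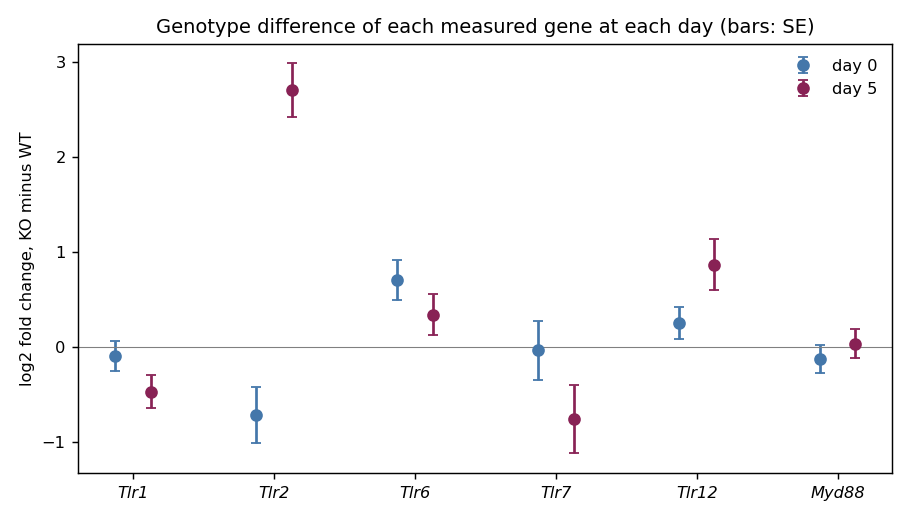
Log2 fold change, KO minus WT, of the 6 measured genes at day 0 and at day 5 (points, edgeR fit; bars, SE; 2 libraries per group). Tlr2 stood at -0.71 at day 0 and at 2.71 at day 5, and the other genes lay between -0.76 and 0.87.

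Other genes with the most similar pattern over the 8 libraries were found by Pearson correlation of log2 CPM, given with no p since the libraries share their groups. For *Tlr2* they were *Chst12* (r = 0.962), a chondroitin sulfotransferase gene, *Acd* (0.960), which encodes a telomere-binding protein, and *Mgat1* (0.958), which encodes an N-glycan branching enzyme. For *Tlr1* they were *Pydc3* (0.998), *Ppil4* (0.997) and the mitochondrial gene *mt-Nd6* (0.996). For *Tlr12* they were *Prss12* (0.999), *Scml4* (0.998) and *Adcy7* (0.997), an adenylate cyclase gene. For *Myd88* they were *Rufy1* (0.993), *Acin1* (0.991) and *Inip* (0.989). For *Tlr6* they were *Rxra* (0.975), a nuclear receptor gene, *Osbpl5* (0.971) and *Mcu* (0.962), which encodes the mitochondrial calcium uniporter. For *Tlr7* they were *Pum2* (0.968), *Scrn3* (0.966) and *Slc4a10* (0.949). None of these 18 genes is a Toll-like receptor.

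The genes within 500 kb of each measured member were called in neither KO minus WT comparison. The windows held 4 tested genes around *Tlr2*, 11 around *Tlr1*, 12 around *Tlr6*, 4 around *Tlr7*, 7 around *Tlr12* and 7 around *Myd88*, with 0 called at day 0, at day 5 and for the difference between the days in each window by edgeR or by DESeq2. At an unadjusted p under 0.05, 3 of the 4 around *Tlr2* differed at day 0 (*Gm26771*, *Mnd1* and *Sfrp2*), 0 at day 5 and 2 for the difference between the days. In each of the other windows 0 to 2 genes did. Over all 12597 genes the shares at this threshold were 13.8% at day 0, 14.1% at day 5 and 12.4% for the difference between the days. With culture, against 48.3% of all genes called in WT and 50.2% in KO, the window of *Tlr2* held 1 called gene of 4 in WT (*Mnd1*, a meiotic recombination gene) and 4 of 4 in KO (*Gm26771*, *Mnd1*, *Sfrp2* and *Trim2*). The window of *Tlr1* held 8 of 11 in WT and 7 of 11 in KO, and that of *Tlr6*, which overlaps it, 8 and 7 of 12. The counts were 3 of 4 in WT and 1 of 4 in KO around *Tlr7*, 3 of 7 in both around *Tlr12*, and 4 and 5 of 7 around *Myd88*.

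The rest of the pathway was described through 64 genes in 7 lists, of which 50 were tested. At day 0, 0.913% of all genes were called higher and 0.889% lower in KO. Of the 50 pathway genes 2 were called, both lower in KO, and both encode inhibitors that hold NF-kB in the cytoplasm. *Nfkbia* measured 161 and 155 CPM in WT and 75.4 and 86.4 in KO at day 0 (KO minus WT -0.97 ± 0.208 SE on the log2 scale, with an FDR of 0.0357 by edgeR). *Nfkbib* measured 17.7 and 15.6 CPM in WT and 6.43 and 8.44 in KO (-1.19 ± 0.272, FDR 0.0487). The call of *Nfkbia* was lost without any 1 of 6 libraries, namely WT day 0 replicate 1 (FDR 0.254) or 2 (0.211), KO day 0 replicate 1 (0.141) or 2 (0.0887), and KO day 5 replicate 1 (0.0611) or 2 (0.0594), and also with library totals only (0.0604) and with a GC and length offset (0.0802). That of *Nfkbib* was lost without each of the 8 libraries in turn (FDR 0.0535 to 0.294), and in 16 of 18 alternatives in all.

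At day 5, 1.31% of all genes were called higher and 0.318% lower in KO. Of the 50 pathway genes 2 were called, both higher in KO. *Rela*, the gene of the main activating NF-kB subunit, measured 30.0 and 28.9 CPM in WT and 54.4 and 54.7 in KO (0.89 ± 0.151 SE, FDR 0.0122, edgeR). *Tnip1*, which encodes a partner of the A20 ubiquitin-editing inhibitor, measured 51.3 and 61.0 CPM in WT and 90.7 and 89.4 in KO (0.68 ± 0.147, FDR 0.0365). The call of *Rela* was lost without WT day 5 replicate 2 (FDR 0.0624), KO day 5 replicate 1 (0.100) or KO day 5 replicate 2 (0.156), and with the GC and length offset (0.0982). That of *Tnip1* was lost without WT day 0 replicate 1 (0.0676) or 2 (0.0708), WT day 5 replicate 1 (0.118) or 2 (0.0567), or KO day 5 replicate 1 (0.211) or 2 (0.268), and with library totals only (0.0650), the GC and length offset (0.43, FDR 0.227) or only the 4 libraries compared (0.0783). For the difference between the days 0 of the 50 pathway genes were called, against 20 of all 12597 genes (0.0794% higher and 0.0794% lower), and DESeq2 called 1 of the 50, *Tnip1*, and 144 of all genes. At an unadjusted p under 0.05, 14 of the 50 and 1562 of all genes differed between the days. *Tnip1* had 192 and 226 CPM in WT and 152 and 164 in KO at day 0, so KO was below WT at day 0 and above it at day 5 (difference 1.09, FDR 0.0565).

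With culture, 31 of the 50 pathway genes were called in WT (13 higher, 18 lower) and 27 in KO (13 higher, 14 lower), against shares over all genes in WT of 24.7% called higher and 23.6% called lower, and in KO of 26.2% and 24%. The median log2 fold change of the 50 was -0.24 in WT and -0.26 in KO, beside -0.04 and -0.05 over all genes. Both comparisons are described list by list, and each has its own day 0 libraries. Among the other Toll-like receptors, *Tlr5*, the receptor for bacterial flagellin, was the 1 tested gene of 4. It had 2 and 0 reads in WT day 0 and 1 and 3 in KO day 0, against 52 and 9 reads in WT day 5 and 24 and 25 in KO day 5. *Tlr5* rose at least 9.33-fold in WT (FDR 0.00209) and at least 11.3-fold in KO (FDR 0.00239), counted against the limit of 3 reads per library at day 0. Without WT day 5 replicate 1 the WT bound was 3.57-fold and the call was lost (FDR 0.0546), and without WT day 5 replicate 2 the bound was 15.1-fold. The KO bound was 8.31-fold without KO day 0 replicate 1 and 17.8-fold without KO day 0 replicate 2. *Tlr8* had at most 5 reads, and *Tlr11* and *Tlr13* at most 2, in any library.

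Of the co-receptors, chaperones and trafficking genes, 5 of 10 were tested, and 2 rose and 1 fell in WT while 3 rose in KO. The median log2 fold change of the 5 was 1.40 in WT and 1.15 in KO. *Unc93b1*, which carries nucleic acid-sensing Toll-like receptors to endosomes, rose from a mean of 1.76 to 18.4 CPM in WT (log2 fold change 3.39 ± 0.450 SE, FDR 5.19e-05) and from 4.04 to 27.3 CPM in KO (2.68 ± 0.361, FDR 5.57e-05). *Hsp90b1*, the gp96 chaperone that folds most Toll-like receptors, rose by 1.41 ± 0.143 in WT and by 1.31 ± 0.143 in KO on the log2 scale. *Unc93b1* was thus higher in the same libraries in which *Tlr12* was lower. *Cnpy3*, a co-chaperone of gp96, fell in WT (-0.91, FDR 0.0274), and this call was lost without WT day 0 replicate 1 (FDR 0.0652), WT day 0 replicate 2 (0.104) or WT day 5 replicate 2 (0.181). It was also lost with only the 4 libraries compared (0.0515), with DESeq2 (0.0810) and with no minimum count (0.0525). *Cnpy3* was not called in KO (FDR 0.846), where its sign varied among the alternatives. Without WT day 5 replicate 2 the WT value was -0.58. *Slc15a4*, an endolysosomal histidine transporter, rose in KO (1.15, FDR 0.0255), and this was lost without KO day 0 replicate 1 (0.0977), KO day 0 replicate 2 (0.0518) or KO day 5 replicate 1 (0.215). It was also lost with DESeq2 (0.0608), with library totals only (0.0518) and at equal depth (0.0779). In WT *Slc15a4* was not called (FDR 0.435), and its value had no stable sign, with -0.39 in the fit over all libraries and 0.06 without WT day 0 replicate 1.

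Of the adaptors other than *Myd88*, 4 of 5 were tested, and *Pik3ap1*, *Tirap* and *Ticam2* rose in WT and in KO. The median was 3.23 in WT and, with genes near 0 at day 0 taken at their lower bound, 2.89 in KO (3.66 as fitted). *Pik3ap1*, also called BCAP, links Toll-like receptors to PI3 kinase. It measured 1.25 and 0.452 CPM in WT day 0, 0.257 and 0.367 in KO day 0, 80.4 and 82.7 in WT day 5, and 122 and 118 in KO day 5. The log2 fold change was 6.48 ± 0.283 SE in WT (FDR 2.13e-09), where the day 0 level rested on 7 and 2 reads, and it was 7.44 without WT day 0 replicate 1 and 6.01 without WT day 0 replicate 2. In KO the rise was at least 297-fold (FDR 2.89e-10). This bound was 218-fold without KO day 0 replicate 1 and 467-fold without KO day 0 replicate 2. *Tirap*, the bridge between TLR2 or TLR4 and MYD88, rose from 4.53 to 47.8 CPM in WT (3.37 ± 0.413, FDR 2.70e-05) and from 10.6 to 56.8 in KO (2.46 ± 0.357, FDR 0.000103). *Ticam2*, a bridging adaptor of TLR4, rose in WT (3.09 ± 0.624, FDR 0.00134) and at least 9.98-fold in KO (FDR 0.000156). The KO bound was 15.7-fold without KO day 0 replicate 2 and 6.83-fold to 13.1-fold without any 1 of the other KO libraries. The *Ticam2* levels rested on 4 and 2 reads in WT day 0 and 1 and 1 in KO day 0. At day 5 they rested on 27 and 24 reads in WT and 15 and 28 in KO. Of its exon length, 14.5% overlaps *Tmed7* on the same strand. *Ticam1*, the TRIF adaptor of TLR3, was not called (-0.28, FDR 0.674 in WT and 0.77, FDR 0.172 in KO). All 3 that rose ran opposite to *Myd88*, whose mean was lower at day 5 in both genotypes.

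Of the kinases and ubiquitin enzymes, 19 of 20 were tested, and in each genotype 3 rose and 7 fell, with a median of -0.23 in WT and -0.28 in KO. *Map3k8*, the TPL2 kinase, rose from 17.2 to 212 CPM in WT (log2 fold change 3.62 ± 0.227 SE, FDR 6.31e-08) and from 17.4 to 137 CPM in KO (3.02 ± 0.219, FDR 2.17e-07). *Ikbke*, a kinase of interferon-regulatory factors, fell from 190 to 23.0 CPM in WT (-3.05 ± 0.188, FDR 5.35e-08) and from 199 to 35.8 in KO (-2.47 ± 0.178, FDR 2.01e-07). *Peli1*, an E3 ligase, fell by 1.46 in WT and by 1.73 in KO on the log2 scale, and *Ikbkb*, the IKK-beta kinase, by 1.34 and by 1.15. With the GC and length offset the values of *Ikbkb* were -0.74 in WT and -0.59 in KO. *Traf3*, a ubiquitin ligase adaptor, fell by 1.78 in KO (FDR 0.00103) and fell by 1.33 in WT (FDR 0.00941), and the WT call was lost without WT day 0 replicate 2 (-0.69, FDR 0.147) or WT day 5 replicate 2 (-1.08, FDR 0.0728). The others that rose were *Ube2n* (0.83, FDR 0.00104) and *Tab2* (0.54, FDR 0.0304) in WT, and *Irak2* (1.88, FDR 0.000201) and *Ube2v1* (0.99, FDR 0.0413) in KO. In the other genotype none of these 4 was called (FDR 0.147 for *Ube2n*, 0.439 for *Tab2*, 0.0516 for *Irak2* and 0.209 for *Ube2v1*). With the GC and length offset, *Ube2n* was 0.50 in WT and *Ube2v1* 0.57 in KO, and without WT day 5 replicate 2 *Tab2* was 0.33 in WT. *Irak2* was called in WT too with DESeq2 size factors in edgeR, with only the 4 libraries compared and without either KO day 0 library. The call of *Tab2* was lost without WT day 0 replicate 1 (FDR 0.0914), WT day 0 replicate 2 (0.124) or WT day 5 replicate 2 (0.192), and with library totals only (0.1095), the GC and length offset (0.0799) or no filter on low counts (0.0863). That of *Ube2v1* was lost without any 1 of the 4 KO libraries (FDR 0.101 to 0.138), and in 11 of 18 alternatives in all.

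Of the 8 transcription factors, all tested, 1 rose and 4 fell in WT, and 1 rose and 3 fell in KO, with a median of -1.0 and -0.56. *Nfkb1*, the precursor of the p50 subunit, rose from 84.6 to 177 CPM in WT (log2 fold change 1.07 ± 0.170 SE, FDR 0.000233) and from 88.7 to 172 in KO (0.95 ± 0.167, FDR 0.000467). *Irf7*, which drives type I interferon genes downstream of TLR7 and TLR9, fell from 120 to 33.1 CPM in WT (-1.84 ± 0.213, FDR 1.71e-05) and from 142 to 40.5 in KO (-1.81 ± 0.208, FDR 1.45e-05). *Irf3* fell by 1.48 in WT (FDR 7.67e-05) and by 0.84 in KO (FDR 0.00424), and *Rela* fell by 1.37 in WT (FDR 1.06e-05) and by 0.77 in KO (FDR 0.00064) on the log2 scale. The KO call of *Irf3* was lost without KO day 0 replicate 1 (-0.53, FDR 0.0626). *Nfkb2* fell in WT (-1.47, FDR 0.0398) from a mean of 2.88 CPM, and this was lost without any 1 of the 8 libraries (FDR 0.0531 to 0.197), and in 13 of 17 alternatives in all. In KO its value was -0.55 (FDR 0.329).

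Of the inhibitors, 9 of 11 were tested, and 5 fell in WT and 3 in KO. Their median was -0.66 in WT and -0.32 in KO. *Nfkbia* fell from 158 to 38.3 CPM in WT (log2 fold change -2.06 ± 0.223 SE, FDR 9.29e-06) and from 80.9 to 32.6 in KO (-1.31 ± 0.221, FDR 0.000338). *Tnip1* fell by 1.90 in WT (FDR 4.37e-07) and by 0.81 in KO (FDR 0.000424) on the log2 scale. *Nfkbie*, another NF-kB inhibitor, fell by 1.44 in WT (FDR 0.000892), and was not called in KO (-0.62, FDR 0.0646). The KO value was -0.18 without KO day 0 replicate 1 (FDR 0.622), and it was called in 4 other alternatives. *Tnfaip3*, which encodes A20, fell by 0.66 in WT (FDR 0.0259) and by 0.72 in KO (FDR 0.0135). The WT call was lost in 6 of 18 alternatives, namely without WT day 0 replicate 1 (0.135) or 2 (0.0534), without WT day 5 replicate 1 (-0.39, FDR 0.232), with DESeq2 (0.0682), at equal depth (0.0518) and without the filter on low counts (0.0513). The KO call was lost without KO day 0 replicate 1 (0.0819), KO day 5 replicate 1 (0.0527) or KO day 5 replicate 2 (0.113), and at equal depth (0.0608). *Sigirr* and *Tollip*, which dampen Toll-like and IL-1 receptors at the membrane, were not called in either genotype (FDR 0.0765 to 0.991).

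Of the IL-1 family receptors that signal through *Myd88*, 4 of 6 were tested, and 3 rose and 1 fell in WT, and 2 rose and 1 fell in KO. Their median was 1.40 and 0.77. Both chains of the IL-18 receptor rose. *Il18rap* rose from 10.2 to 157 CPM in WT (log2 fold change 3.94 ± 0.170 SE, FDR 1.92e-09) and from 15.3 to 170 in KO (3.49 ± 0.157, FDR 2.37e-09), and *Il18r1* from 28.3 to 114 CPM in WT (2.0 ± 0.207, FDR 6.34e-06) and from 33.5 to 126 in KO (1.91 ± 0.199, FDR 6.18e-06). *Il1rl2*, the IL-36 receptor, fell from 20.0 to 2.52 CPM in WT (-2.93 ± 0.336, FDR 1.53e-05; -3.53 without WT day 5 replicate 1) and from 17.8 to 2.71 in KO (-2.70 ± 0.327, FDR 2.23e-05). *Il1rap*, the shared accessory chain, rose in WT (0.80, FDR 0.0213), and this was lost without WT day 0 replicate 2 (0.158) or WT day 5 replicate 2 (0.53, FDR 0.161), and with library totals only (0.0574) or the GC and length offset (0.0540). In KO its value was -0.37 (FDR 0.236).

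**Figure D4:**
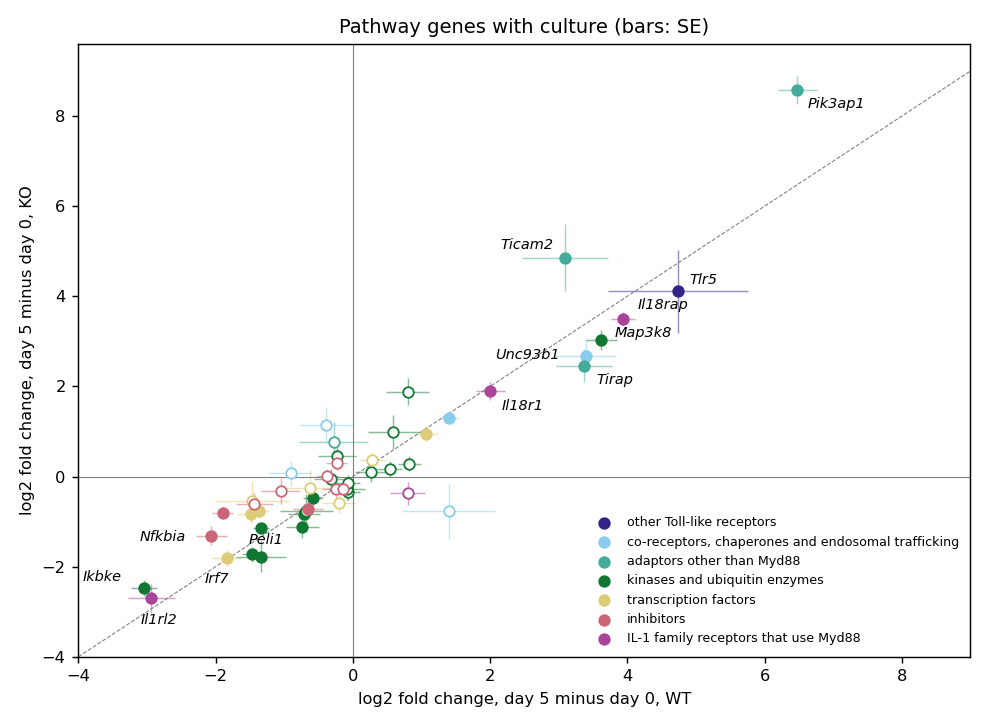
Log2 fold change from day 0 to day 5 in WT (x axis) and in KO (y axis) of the 50 tested pathway genes (points coloured by list; bars, SE; dashed line, equal change; filled points, FDR under 0.05 in both genotypes; open points, not called in at least 1). Pik3ap1 (6.48 in WT, 8.58 in KO) and Il18rap (3.94, 3.49) lie at the upper right, as fitted (for genes near 0 at day 0 the fitted value is no bound), and Ikbke (-3.05, -2.47) and Il1rl2 (-2.93, -2.70) at the lower left.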

How the data were processed

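RNA was measured by sequencing of sorted splenic CD8+ T cells, with 50-base reads on an Illumina HiSeq. The authors aligned the reads to mm10 (GRCm38) with HISAT2 2.1.0 and deposited raw read counts per gene and library from HTSeq 0.11.1 (versions from the submitters' processing notes). The annotation and the strand setting are not given in the sources used here. Lines for reads without a gene were left out; 21.2% to 24.5% of the reads in a table were assigned to genes, 27.5% to 33.7% fell in no feature and 31.8% to 37.4% aligned at more than 1 place.

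Groups were taken from the sample titles. Gene-level counts were analysed with edgeR 4.0.16 (R 4.3.3, limma 3.58.1): filterByExpr with a minimum count of 10 kept 12597 genes, TMM factors were used, and 1 mean per group was fitted over all 8 libraries with the quasi-likelihood test. The common biological coefficient of variation was 14.9%. Genes with FDR under 0.05 (Benjamini-Hochberg over all tested genes) were called. The script was checked on simulated counts. Alternatives were DESeq2 1.42.0 and 9 others, and leaving out each library.

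The members and the pathway and marker lists were chosen with earlier results of these data known. Named were all members, *Satb1*, pathway genes called between genotypes, up to 3 called genes per direction, list and day comparison, and the 3 genes most correlated with each member. Lengths and coordinates came from GENCODE M21. Replicates differed by more than sampling noise (chi-square per degree of freedom 4.69 to 9.40).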

Additional observations from a re-analysis of the deposited data

Results flagged for a closer look

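The change of *Satb1* with time differed between the genotypes. The difference between the log2 fold changes of KO and WT was -1.34 (FDR 0.0269, edgeR quasi-likelihood test), with KO above WT at day 0 and below it at day 5. The call was lost without WT day 0 replicate 1 (FDR 0.156) or 2 (0.231), KO day 0 replicate 1 (0.0501), WT day 5 replicate 2 (0.0556), or KO day 5 replicate 1 (0.177) or 2 (0.122), and with the GC and length offset (0.0676).

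For *Tlr2* the same difference was 3.42. Both KO libraries lay below both WT libraries at day 0 and above them at day 5, and with culture KO was higher and WT lower. This difference was not tested, since *Tlr2* was chosen on these values.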

How the results depend on the processing

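Results were computed under up to 10 alternatives and with each library left out. For the difference between the days, the fit with only the 4 libraries compared could not be made, and some pathway genes had no value or no adjusted p under 1 or 2 more. The sign of every log2 fold change of *Tlr1*, *Tlr2* and *Tlr12* was the same in all that were run. For *Tlr2*, KO minus WT at day 5 ranged from 2.43 to 2.94, the day 5 minus day 0 value in KO from 2.54 to 3.10, the difference between the days from 3.14 to 3.67, KO minus WT at day 0 from -0.97 to -0.44 and the day 5 minus day 0 value in WT from -0.82 to -0.28. For *Tlr12* the difference between the days, 0.61, was 0.33 with the GC and length offset, and with it the KO values with culture were -1.02 for *Myd88* and -0.73 for *Tlr6*. Signs varied for *Tlr6* with culture in WT (same in 16 of 18), *Tlr7* between genotypes at day 0 (15 of 18), and *Myd88* between genotypes at day 0 (17 of 18) and day 5 (15 of 18) and for the difference between the days (15 of 17).

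Pathway calls between KO and WT at day 0 numbered 2. They were 1 with DESeq2 size factors in edgeR, with at least 5 CPM in 2 libraries, with DESeq2, at equal depth and with only the 4 libraries compared, 0 with library totals only and with a GC and length offset, and 4 without the filter on low counts. Leaving out 1 library gave 0 to 1. At day 5, 2 pathway calls became 1 with library totals only and with only the 4 libraries compared, 0 with the GC and length offset and 4 without the filter, and 0 to 3 with 1 library left out (0 without WT day 5 replicate 2, KO day 5 replicate 1 or KO day 5 replicate 2). For the difference between the days, 0 became 1 without the filter, with DESeq2 and at equal depth, and stayed at 0 with any library left out.

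Over all genes, the 227 calls at day 0 became 434 without the filter, and 38 (without WT day 0 replicate 1) to 276 with 1 library left out. The 205 at day 5 became 418 without the filter, 350 with DESeq2 and 117 with the GC and length offset, and 32 (without KO day 5 replicate 2) to 249. The 20 for the difference between the days became 154, 144 and 13 in the same order, 33 at equal depth, and 0 (without WT day 0 replicate 1) to 41. With culture, leaving out 1 library gave 23 to 32 pathway calls in WT and 23 to 29 in KO, and 4630 to 6240 and 4669 to 6510 calls over all genes. Library totals shifted the median of all genes with culture by -0.137 in WT and -0.183 in KO, and the GC and length offset by -0.198 and -0.162 (log2). With culture, the main fit called 3112 of all genes higher and 2969 lower in WT, and 3296 and 3029 in KO. With library totals these became 2668 and 3560 in WT, and 2755 and 3936 in KO. With the GC and length offset they became 2611 and 3466 in WT, and 2811 and 3679 in KO. Over the pathway, library totals gave 11 higher and 20 lower in WT, and 11 and 19 in KO. The offset gave 11 and 18 in WT, and 12 and 17 in KO. The causes of these differences were not tested.

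Libraries of the same replicate number were not shown to be paired: the correlation of their deviations was 0.004 and -0.017 between genotypes and 0.118 (WT) and 0.229 (KO) between days, and the labels state no pairing. With the replicate number as a block, the pathway calls were 1 at day 0 and 1 for the difference between the days (*Tnip1*, FDR 0.046), and with culture 30 in WT and 26 in KO.

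With 2 libraries per group, members with few reads, such as *Tlr12* at day 5, have wide counting error, and receptors with at most 3 reads could not be compared.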
